A study of Mus musculus with 8 samples.

Results

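The genes described here encode 8 secreted proteins, most of them with plasma or tissue levels known to rise with inflammation. These are the serum amyloid A genes Saa1, Saa2, Saa3 and Saa4 (the last constitutive), lipocalin 2 (Lcn2), haptoglobin (Hp), orosomucoid 1 (Orm1) and the chitinase-like gene Chil1. They were selected on the log2 array signals analysed here, with their knockout minus wild type differences already known. A gene counted as measured where a probe set of the array was annotated with its symbol and no other. By that rule 7 of the 8 were measured, each by 1 probe set, among 22180 genes in all. Saa1 was not measured alone, and the probe set it shares with Saa2 is given separately.

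RNA came from the middle colon of 8 female mice, 9 weeks old, all labelled with the strain C57BL/6-Trim58tm2313Arte. Of these, 4 were wild type (Trim58+/+; WT1 to WT4) and 4 were Trim58-/- (KO1 to KO4), which lack the ubiquitin ligase Trim58 in every cell. Both genotypes drank 4.0% dextran sodium sulfate, a detergent-like polymer that injures the colon epithelium, for 7 days and plain water for 5 more, and colon was taken on day 12. Each mouse gave 1 array. All mice received the polymer, and untreated colon was not analysed here.

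Acute-phase proteins are made in bulk by hepatocytes when interleukin-6 and interleukin-1 act through STAT3, NF-kappa B and C/EBP factors. In inflamed gut, epithelial cells and incoming myeloid cells make several of them locally. Serum amyloid A proteins bind lipids and retinol, lipocalin 2 takes iron-carrying siderophores from bacteria, and haptoglobin captures free haemoglobin.

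The bases before the start sites of 5 members are printed because the Saa genes are close relatives whose probe sets gave different pictures on these arrays, and because Lcn2 and Chil1 are compared with them. Each stretch is the 250 bases before the RefSeq start on build GRCm38.p6, 5′ to 3′ on the gene's strand. Capitals mark a match to the C/EBP motif TTGCNNAA, read on either strand, in Saa3, Saa1, Saa2 and Lcn2, and a match to the kappa B consensus in Chil1. The windows are chr7:46715677-46715926 (minus strand) for Saa3, chr7:46742981-46743230 (minus strand) for Saa1, chr7:46751583-46751832 (plus strand) for Saa2, chr2:32387740-32387989 (minus strand) for Lcn2 and chr1:134181906-134182155 (plus strand) for Chil1.
Saa3: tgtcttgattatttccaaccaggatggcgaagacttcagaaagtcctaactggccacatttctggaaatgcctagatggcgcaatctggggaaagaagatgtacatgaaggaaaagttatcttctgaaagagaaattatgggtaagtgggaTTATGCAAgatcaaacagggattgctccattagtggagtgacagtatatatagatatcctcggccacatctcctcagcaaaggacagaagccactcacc
Saa1: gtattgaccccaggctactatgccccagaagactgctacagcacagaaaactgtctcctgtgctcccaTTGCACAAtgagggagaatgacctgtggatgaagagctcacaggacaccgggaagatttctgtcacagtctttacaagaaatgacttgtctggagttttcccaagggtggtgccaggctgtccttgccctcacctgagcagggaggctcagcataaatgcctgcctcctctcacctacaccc
Saa2: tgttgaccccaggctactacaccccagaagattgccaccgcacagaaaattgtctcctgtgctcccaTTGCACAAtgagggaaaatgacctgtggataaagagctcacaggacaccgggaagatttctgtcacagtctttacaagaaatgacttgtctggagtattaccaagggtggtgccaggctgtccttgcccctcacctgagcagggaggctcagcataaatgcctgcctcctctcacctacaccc
Lcn2: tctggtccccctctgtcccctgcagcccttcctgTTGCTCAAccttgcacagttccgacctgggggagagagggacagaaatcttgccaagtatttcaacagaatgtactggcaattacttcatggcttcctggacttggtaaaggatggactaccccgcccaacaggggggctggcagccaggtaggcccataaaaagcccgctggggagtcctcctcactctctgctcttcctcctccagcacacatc
Chil1: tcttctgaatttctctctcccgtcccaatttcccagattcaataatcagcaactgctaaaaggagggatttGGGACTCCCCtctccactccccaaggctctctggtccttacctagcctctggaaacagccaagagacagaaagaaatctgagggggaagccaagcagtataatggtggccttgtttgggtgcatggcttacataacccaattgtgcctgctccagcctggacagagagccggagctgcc

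RefSeq's promoter table held 6 of the 8 members, Hp and Orm1 not among them. The C/EBP motif was in 5 of these 6 windows, Saa4 included, and in 9.56% of all 32851 windows of that length. The Saa windows are related in sequence, so their matches are not separate observations and nothing is read from this share. The kappa B consensus was in Chil1 and in 3.90% of all windows. The STAT motif TTCNNNGAA was in 0 of the 6 and in 7.02% of all windows. In the printed windows no match overlapped another. Saa1 and Saa2 were identical at 95.6% of 249 aligned bases, with the motif match 182 and 183 bases before the start. Saa3 matched Saa1 at 75.1% of 205 aligned bases, and its motif match began 99 bases before the start. A match is a description of the letters and no evidence of binding.

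Array medians lay between 5.73 and 5.83 on the log2 scale, and pairs of arrays correlated at 0.972 to 0.989. The Trim58 probe set gave 5.12 ± 0.087 in wild type and 5.05 ± 0.24 in knockout (SD, n = 4 each), which does not check the genotype labels. The colon label fitted its markers: the epithelial gene Epcam lay between 11.55 and 11.83 on all arrays. KO1, KO2 and KO4 held pancreatic digestive enzyme RNA that KO3 lacked: the mean of 16 markers was 9.98, 10.92, 5.70 and 10.69 from KO1 to KO4 and 5.79 to 5.92 in wild type.

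Saa3, Lcn2, Hp and Chil1 were higher in knockout colon, and Saa2, Saa4 and Orm1 missed the threshold, an adjusted p under 0.05 in limma over all genes. That made 4 of 7 measured members higher and 0 lower, where 0.392% of all genes were called higher, 0.185% lower and 0.577% either way. The same 4 genes had all knockout values above all wild type values, as 3.79% of all genes did, and 8.81% did not overlap in either direction. Since the members were picked with this contrast known, nothing is read from these counts, and the p-values of the members describe the contrast without independent weight. The median log2 difference was 0.83 over the measured members and -0.014 over all genes tested. In bulk tissue, more cells of a type and more RNA per cell cannot be told apart.

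**Figure D1:**
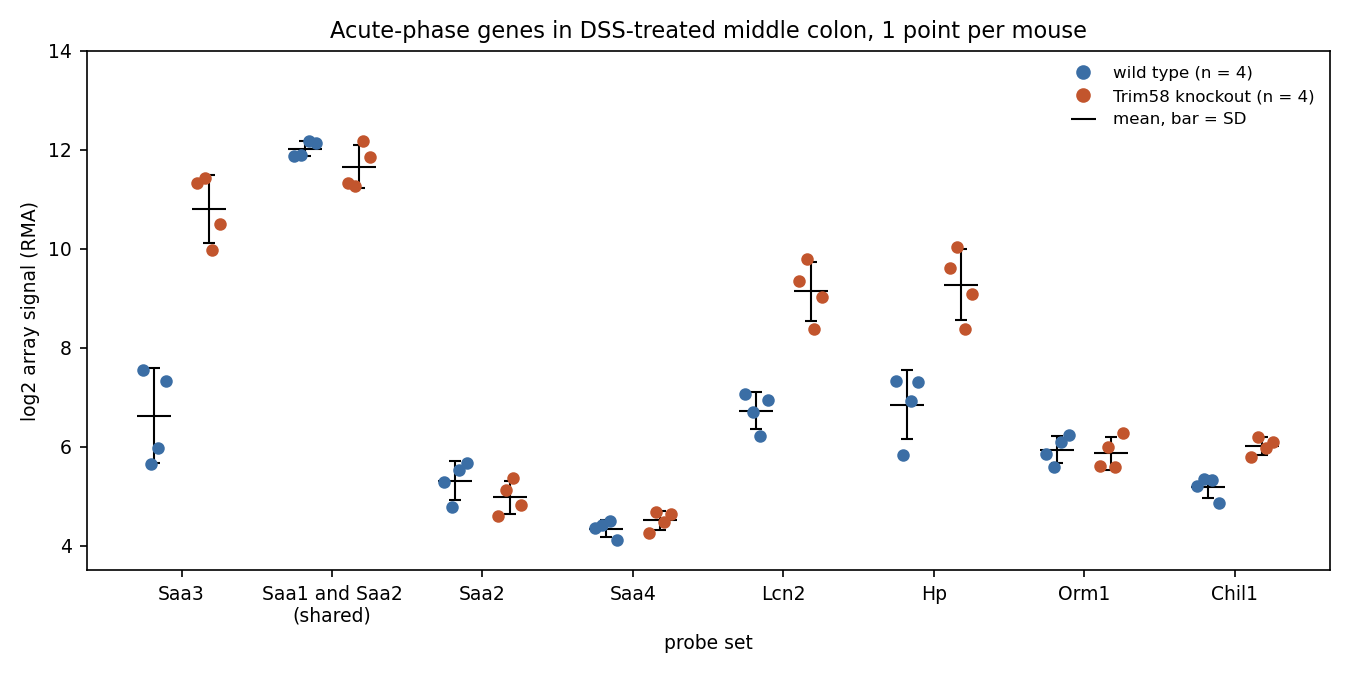
Log2 array signal (vertical axis) of each measured member and of the probe set shared by Saa1 and Saa2, 1 point per mouse, with the mean and SD of each genotype. Saa3, Lcn2, Hp and Chil1 do not overlap between genotypes, and the shared probe set is bright in both.

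Saa3 is the serum amyloid that macrophages, fat cells and injured epithelium make outside the liver. Its log2 signal ran at 7.55, 5.65, 5.97 and 7.33 from WT1 to WT4 and at 11.32, 11.42, 9.97 and 10.50 from KO1 to KO4. Every knockout was above every wild type mouse, by at least 2.42, and KO3 was the lowest knockout. Means were 6.63 ± 0.95 and 10.80 ± 0.69 (SD, n = 4 each), or 18.1-fold higher with a 95% interval of 8.95 to 36.5 (limma adjusted p = 0.00568). The call held in all 8 fits that left out an array, where the log2 difference was 3.85 to 4.48. KO3 lay 3.34 above the wild type mean, and KO1, KO2 and KO4 lay 4.45 above it on average. With the pancreatic mean as a covariate the difference was 3.44 and the call was lost (limma adjusted p = 0.306). That mean was high in KO1, KO2 and KO4 alone, so here and below the covariate is largely confounded with genotype. A lost call in that fit does not tell pancreatic RNA from genotype.

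Saa1 and Saa2 encode the serum amyloids that circulate in plasma and that colon epithelium also secretes. Their shared probe set ran at 11.88, 11.90, 12.17 and 12.14 from WT1 to WT4 and at 11.33, 11.27, 12.18 and 11.86 from KO1 to KO4. KO1 and KO2 were below every wild type mouse, while KO3 was the highest of the 8, so the groups overlapped. The log2 difference was -0.36, 95% interval -0.81 to 0.089 (limma adjusted p = 0.590 over all 41345 probe sets). This signal belongs to neither gene alone. RefSeq gives each of the names Saa1 and Saa2 as a synonym of the other gene, so the annotation may be interchanged.

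The probe set for Saa2 alone was dim, at 5.29, 4.77, 5.52 and 5.68 from WT1 to WT4 and 4.60, 5.12, 5.36 and 4.81 from KO1 to KO4. The groups overlapped, with a log2 difference of -0.34 and a 95% interval of -0.80 to 0.12 (limma adjusted p = 0.518). Its sign turned in 1 of 19 alternative fits, that of KO3 alone. Neither the interval of the Saa2 probe set nor that of the shared one reached the rise seen in Saa3. The Saa2 probe set is dim and the shared one belongs to neither gene alone, so unchanged Saa2 RNA cannot be read from them. How signal splits between genes as alike as Saa1 and Saa2 is uncertain.

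Saa4 encodes the constitutive serum amyloid of lipoproteins. It gave 4.35, 4.42, 4.49 and 4.12 from WT1 to WT4 and 4.26, 4.68, 4.48 and 4.64 from KO1 to KO4, again with overlap. The log2 difference was 0.17, 95% interval -0.086 to 0.43 (limma adjusted p = 0.563). As a rough guide to background, 95% of 1105 olfactory receptor genes had wild type means under 5.52. The wild type means of Saa4, Saa2 and Chil1 were all below that level, so differences of these genes may be understated. The same holds for the wild type means of Chil3, Il6, Il1a, Il11, Fpr2, Il13ra2, S100a9, Stfa2l1, Mmp8 and Ngp, and folds of these genes describe array signal rather than RNA. For Il6 and Il13ra2 all 8 values were below that level.

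Lcn2 encodes a protein stored in neutrophil granules and secreted by inflamed colon epithelium. It gave 7.06, 6.69, 6.21 and 6.94 from WT1 to WT4 and 9.36, 9.80, 8.38 and 9.03 from KO1 to KO4. All knockouts were higher, with a gap of 1.33, and KO3 was again the lowest of them. Means of 6.72 ± 0.38 and 9.14 ± 0.60 (SD, n = 4 each) made a 5.35-fold difference, 95% interval 3.48 to 8.20 (limma adjusted p = 0.00622). The call held in all 8 fits that left out an array, at a log2 difference of 2.20 to 2.67. KO3 lay 1.66 above the wild type mean and the other knockouts 2.67 on average. The pancreatic covariate left a difference of 1.70 and ended the call (limma adjusted p = 0.295).

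Hp, the haemoglobin scavenger, gave 7.32, 5.84, 6.91 and 7.31 from WT1 to WT4 and 9.61, 10.03, 8.37 and 9.09 from KO1 to KO4. The groups were 1.05 apart, with WT2 well below the other wild type mice and KO3 the lowest knockout. Means of 6.85 ± 0.70 and 9.28 ± 0.72 (SD, n = 4 each) made a 5.39-fold difference, 95% interval 2.96 to 9.80 (limma adjusted p = 0.0271). The call ended without WT2, WT3, WT4, KO1, KO2 or KO4 (adjusted p = 0.0702, 0.0589, 0.0664, 0.0738, 0.0772 and 0.0536), and with a mean-variance trend and robust variance (0.0692), by limma. Without an array the log2 difference was 2.09 to 2.73. KO3 lay 1.52 above the wild type mean and the other knockouts 2.73 on average. The pancreatic covariate left 1.58 and no call (limma adjusted p = 0.710).

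Orm1 encodes a plasma carrier of drugs and lipids. It gave 5.85, 5.59, 6.10 and 6.23 from WT1 to WT4 and 5.61, 5.99, 5.59 and 6.28 from KO1 to KO4, with overlap. The log2 difference was -0.075, 95% interval -0.47 to 0.32 (limma adjusted p = 0.900), and its sign turned in 5 of 20 alternative fits. The neighbouring relatives Orm2 and Orm3 differed by 0.18 and -0.045 (limma adjusted p = 0.718 and 0.915), and the sign of Orm3 turned in 3 fits. Every value of Orm2 and Orm3 was below the background guide.

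Chil1, also called YKL-40, binds chitin without cutting it and is made by epithelium and macrophages in colitis. It gave 5.20, 5.35, 5.32 and 4.86 from WT1 to WT4 and 5.78, 6.18, 5.98 and 6.10 from KO1 to KO4. Both groups were tight and 0.43 apart. Means of 5.18 ± 0.23 and 6.01 ± 0.17 (SD, n = 4 each) made a 1.77-fold difference, 95% interval 1.46 to 2.16 (limma adjusted p = 0.0230). The call ended without WT2, KO2 or KO4 (adjusted p = 0.0658, 0.0772 and 0.0571) by limma. KO3 lay 0.80 above the wild type mean, close to the 0.84 of the other knockouts. The pancreatic covariate left 0.76 and no call (limma adjusted p = 0.670).

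Of 8 other chitinase family genes, 1 was called higher and 0 lower, with a median log2 difference of -0.065. The call was Chil3, made by alternatively activated macrophages and neutrophil precursors. It gave 4.57, 4.22, 3.82 and 3.91 from WT1 to WT4 and 7.43, 7.12, 6.28 and 6.34 from KO1 to KO4. That 6.34-fold difference (limma adjusted p = 0.00424) stayed called in all 8 fits that left out an array. Chil4 and the chitinase Chia1 differed by -0.11 and -0.073 (limma adjusted p = 0.742 and 0.867), with signs that turned in 1 and 3 fits. Every value of Chil4 and Chia1 was below the background guide. Chid1 differed by -0.17 (limma adjusted p = 0.288).

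Saa3, Lcn2 and Hp shared much of their order across single mice. KO2 was the highest and KO3 the lowest knockout in all 3, and WT1 was the highest wild type mouse. Deviations from the genotype means correlated at 0.81 for Saa3 with Lcn2, 0.89 for Saa3 with Hp and 0.73 for Lcn2 with Hp. Deviations of Chil1 correlated at -0.47 with Saa3, -0.11 with Lcn2 and -0.27 with Hp, although KO2 was its highest knockout too. Among the members they were closest to those of Saa4 (0.96), whose probe set was dim. These are descriptions over 8 arrays that share their scaling.

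The genes whose signal was most like a member's were named by Pearson's r over the 8 arrays, which holds the genotype difference too. For Saa3 they were Serpina3n (0.998), Sema6b (0.990), Cxcl5 (0.989), Mmp14 (0.982) and Col18a1 (0.982). Serpina3n is an acute-phase protease inhibitor and Cxcl5 a neutrophil chemokine. For Lcn2 they were St3gal1 (0.996), Sema6b (0.991), Mmp14 (0.989), Cp (0.989) and Selp (0.988), among them ceruloplasmin (Cp) and the adhesion receptor P-selectin (Selp). For Hp they were Ranbp17 (0.989), Pla1a (0.979), Serpina3n (0.978), Reg3b (0.976) and Col18a1 (0.970), where Reg3b is an antibacterial lectin. For Chil1 they were Exoc3l4 (0.995), Lpgat1 (0.971), Tmem132e (0.966), Clcf1 (0.959) and Thbs1 (0.951), and for Orm1 AA388235 (0.964), Hapln3 (0.934), Pcsk2os2 (0.933), Spag11a (0.926) and Samt2 (0.926). Members, predicted genes, RIKEN clones and olfactory receptors were left out of this ranking. The named genes are the highest of those that remained of 22180, so the choice itself favours high values.

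Of 25 other acute-phase genes measured, 2 were called higher and 0 lower, where 0.392% of all genes were called higher. Of the 25, 21 lay above 0, as did 10229 of all 22180 genes, and the median log2 difference was 0.28. Serpina3n went from 9.88 ± 0.40 to 11.45 ± 0.23 (SD, n = 4 each), 2.96-fold higher (limma adjusted p = 0.00763). The ferroxidase gene Cp went from 7.02 ± 0.31 to 8.35 ± 0.30 (SD, n = 4 each), 2.50-fold higher (limma adjusted p = 0.0139), and lost its call without WT2 (adjusted p = 0.0658). The count of calls was 1 without WT2 and 5 without KO3. Steap4, a metalloreductase, differed by 1.18 without passing (limma adjusted p = 0.115). Among liver products of the list that did not pass, differences fell on both sides of 0. The hepcidin gene Hamp differed by -0.43, the lowest of the 25, without passing. Crp, Apcs and Fga differed by -0.027, 0.014 and 0.0020 (limma adjusted p = 0.936, 0.973 and 0.996). Fgb, Fgg and Lbp differed by 0.24, 0.28 and 0.45 (limma adjusted p = 0.243, 0.411 and 0.300), and Itih3 and Itih4 by 0.40 and 0.84 (limma adjusted p = 0.110 and 0.181). Every value of Orm2, Orm3, Hamp, Crp, Apcs, Fga, Fgb, Fgg and Itih3 was below the background guide. Their small differences are therefore no measure of unchanged RNA. Of the 25, 6 did not overlap between genotypes, where 8.81% of all genes did not overlap in either direction. They were Serpina3n, Cp, Steap4, Il1rn, Itih3 and Fgb. The log2 gap was 0.29 for Steap4, 0.080 for Il1rn, 0.014 for Itih3 and 0.0090 for Fgb. Itih4 passed without KO3 (limma adjusted p = 0.0441).

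**Figure D2:**
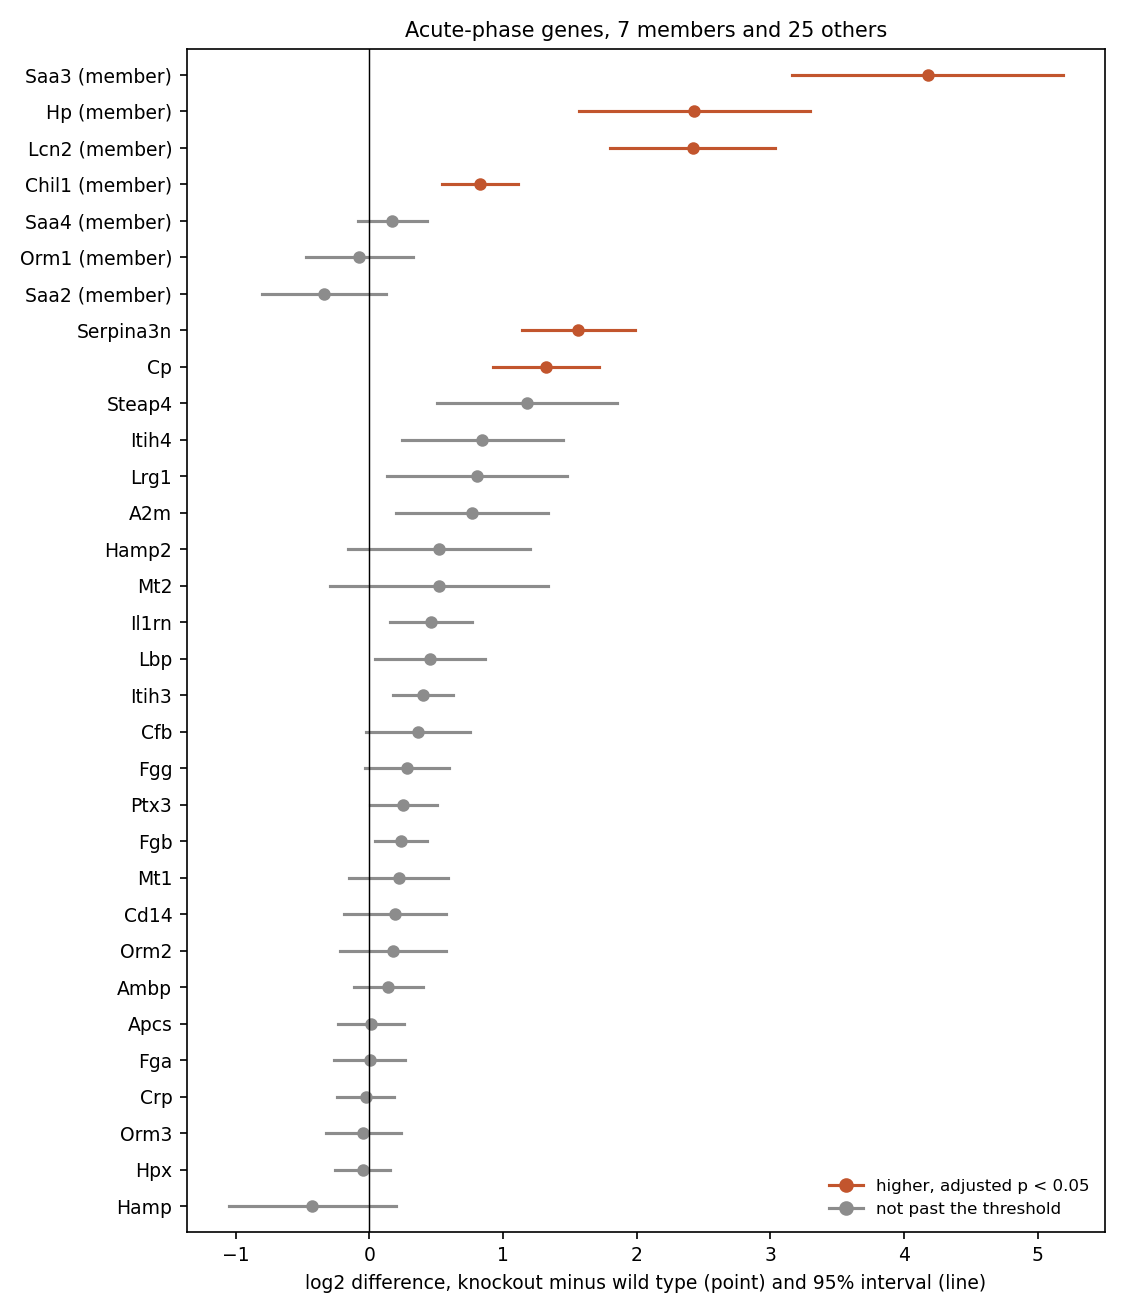
Log2 difference, knockout minus wild type (horizontal axis), with its 95% interval for the measured members and 25 other acute-phase genes, marked where the limma adjusted p was under 0.05. Saa3 (4.18), Hp (2.43) and Lcn2 (2.42) lie furthest right, and Serpina3n (1.56) and Cp (1.32) are the calls among the others.

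Among cytokines known to induce these proteins, 4 of 13 measured were called higher and 0 lower, with a median log2 difference of 0.19. Over all genes 0.392% were called higher and 0.185% lower. The gene and marker lists were chosen with earlier results of these data known, so nothing is read from their counts of calls. Il1b gave 8.06, 7.47, 7.07 and 8.21 from WT1 to WT4 and 10.42, 11.73, 11.60 and 10.57 from KO1 to KO4 (10.4-fold, limma adjusted p = 0.00424). KO3, the lowest knockout in Saa3, Lcn2 and Hp, was above KO1 and KO4 in Il1b. Il6 gave 3.23, 2.82, 2.71 and 3.11 from WT1 to WT4 and 5.27, 5.34, 3.95 and 4.52 from KO1 to KO4 (3.48-fold, limma adjusted p = 0.0230), all below the background guide, so their order is not read. Il1a was 5.17-fold and Il11 2.30-fold higher (limma adjusted p = 0.0125 and 0.0310). Calls ended without WT2, WT3, WT4, KO1 or KO2 for Il6, without WT2 for Il1a and without WT1, WT2, WT3, WT4, KO1, KO2 or KO4 for Il11. The count was 1 without WT2 and 2 without WT3, WT4, KO1 or KO2.

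Il22, which drives epithelial Lcn2 and Saa genes, was very dim, at 1.46 ± 0.099 and 1.63 ± 0.068 (SD, n = 4 each; limma adjusted p = 0.346). Il17a and Il17f differed by 0.18 and 0.19 (limma adjusted p = 0.511 and 0.623). Every value of Il22 and Il17a was below the background guide, so their small differences are no measure of unchanged RNA. Tnf and oncostatin M (Osm) differed by 0.41 and 0.73 (limma adjusted p = 0.614 and 0.0898).

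Of 28 receptor and signalling genes, 2 were called higher and 1 lower, with a median log2 difference of 0.17. The decoy receptor gene Il1r2 was 3.04-fold and the oncostatin M receptor gene Osmr 1.82-fold higher (limma adjusted p = 0.0121 and 0.0231). Il22ra1, the epithelial interleukin-22 receptor chain, went from 9.11 ± 0.098 down to 8.61 ± 0.093 (SD, n = 4 each; limma adjusted p = 0.0299). Calls ended without WT2 for Il1r2, without WT2, WT3, WT4, KO2 or KO4 for Osmr and without WT2, WT3, KO1, KO2 or KO4 for Il22ra1. The count of higher calls was 0 without WT2, 1 without WT3, WT4, KO2 or KO4 and 4 without KO3, and that of lower calls 0 without WT2, WT3, KO1, KO2 or KO4. Il1r1 and Il6st, signalling receptor chains, differed by 0.77 and 0.45 (limma adjusted p = 0.0516 and 0.0792), and Il1r1 passed in 7 of 20 alternative fits. Stat3, Cebpb, Cebpd, Nfkbiz and Socs3 differed by 0.22, 0.43, 0.20, 0.16 and 0.74 without passing. Il6ra differed by 0.014, with a sign that turned in 4 fits.

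Of 17 receptors and partners of the members, 5 were called higher and 0 lower, with a median log2 difference of 0.14. Il13ra2, a receptor for Chil1, went from 4.09 ± 0.088 to 4.88 ± 0.11 (SD, n = 4 each), 1.73-fold higher (limma adjusted p = 0.00459), a call kept in all 8 fits that left out an array although all 8 values were below the background guide. Fpr2, which binds serum amyloid A, was 3.42-fold higher (limma adjusted p = 0.0182) and lost its call without WT2 or WT4. Mmp9, a gelatinase that pairs with lipocalin 2, was 2.41-fold higher (limma adjusted p = 0.0186) and lost its call without WT2 or KO2. Cd44 was 1.48-fold and the haem oxygenase gene Hmox1 1.71-fold higher (limma adjusted p = 0.0327 and 0.0361). Both were fragile, with calls lost without WT1, WT2, WT3, WT4, KO1 or KO2 for Cd44 and without WT1, WT2, WT3, WT4, KO1, KO2 or KO4 for Hmox1. Cd163, the haptoglobin-haemoglobin receptor, differed by 0.30 (limma adjusted p = 0.351), and the lipocalin receptor Slc22a17 by 0.016, with a sign that turned in 3 fits. The count of calls was 1 without WT2, 2 without WT4 or KO2 and 3 without WT1, WT3 or KO1.

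**Figure D3:**
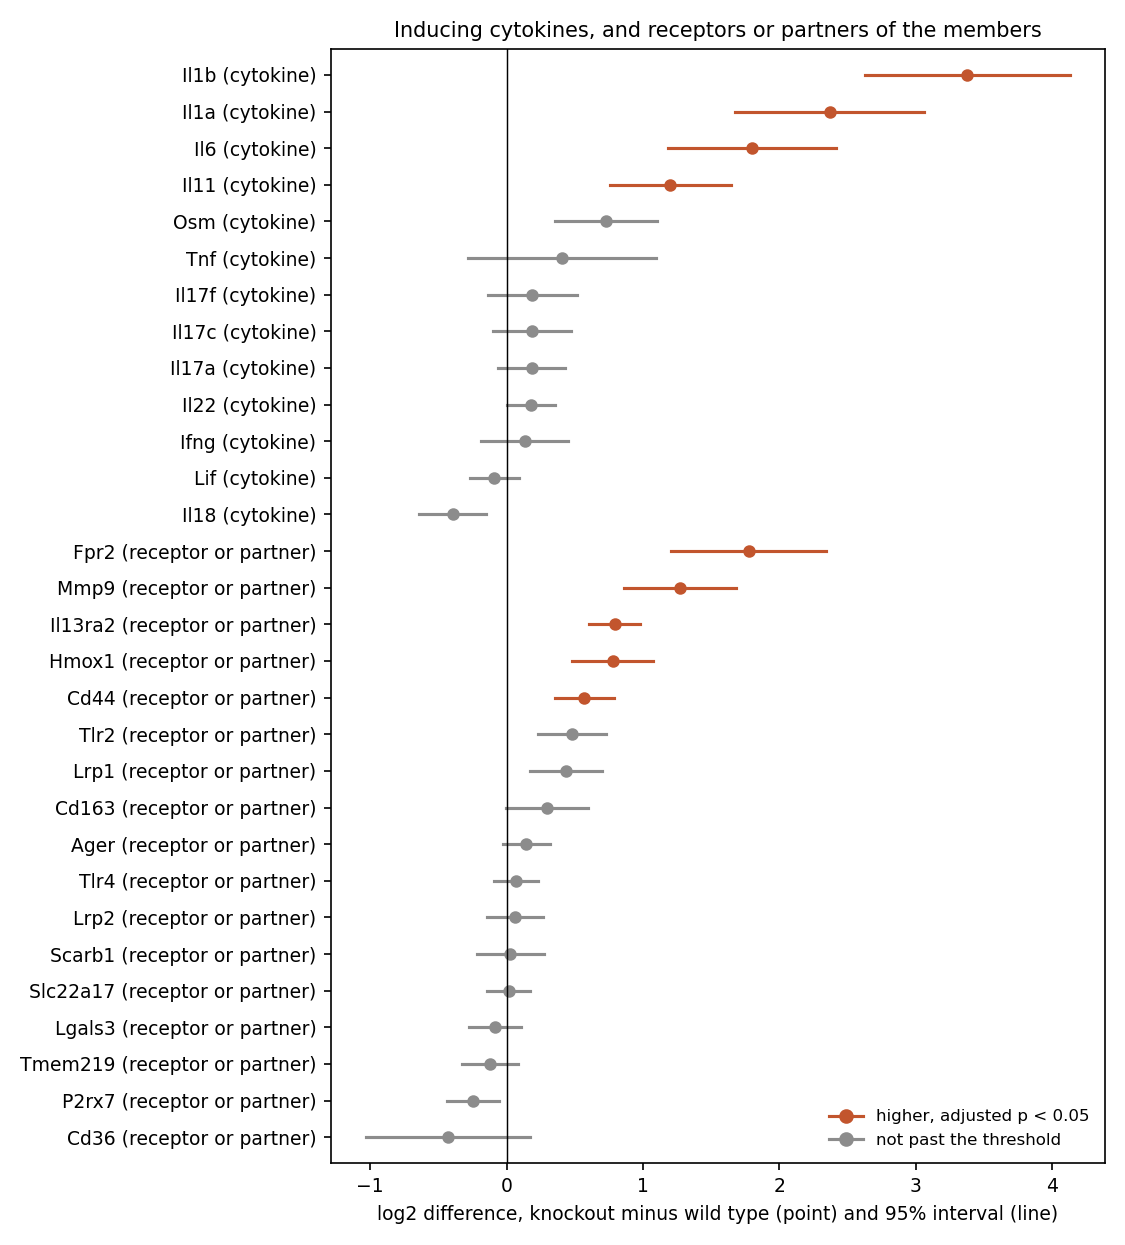
Log2 difference, knockout minus wild type (horizontal axis), with its 95% interval for 13 inducing cytokines and 17 receptors or partners of the members, marked where the limma adjusted p was under 0.05. Il1b, Il1a, Il6 and Il11 are the cytokine calls, and Il22, Il17a and Il17f lie near 0. Every value of Il22 and Il17a was below the background guide.

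Markers of cells that could hold these RNAs moved unequally. Of 18 neutrophil markers 9 were called higher and 0 lower, and the list mean was 5.70 to 6.01 in wild type and 6.80 to 7.35 in knockout arrays. S100a9 was 8.64-fold and Stfa2l1 7.19-fold higher (limma adjusted p = 0.000233 and 0.000269). Of the granule genes, the collagenase gene Mmp8 was 4.57-fold higher (limma adjusted p = 0.00459) and kept its call in all 8 fits that left out an array, and Mmp9, also on this list, was 2.41-fold higher. Ngp was 1.69-fold higher (limma adjusted p = 0.0314; lost without WT1, WT2, WT3, KO2 or KO4), while Ltf, Camp, Mpo and Elane differed by 0.36, -0.10, 0.045 and -0.012 without passing. Of the 18 neutrophil markers 3 had every value below the background guide, Camp and Mpo among them. The small differences of Camp and Mpo are therefore no measure of unchanged RNA. The signs of Mpo and Elane turned in 1 and 3 fits, and that of Ly6g (-0.36) in 3. Of 15 monocyte and macrophage markers 2 were called higher and 0 lower: Itgam (2.14-fold) and Msr1 (2.07-fold). Their list mean was 7.65 to 8.63 in wild type and 8.29 to 8.68 in knockout. The macrophage count was 0 without WT2 or KO2 and 1 without WT3, WT4 or KO1. The part of these cells in the members' differences was not tested.

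Hepatocyte and adipocyte markers, of tissues that make these proteins in bulk, gave 0 calls in 18 and 0 in 12 genes. Of the hepatocyte markers 9 stayed under 5.52 on all arrays, and their mean was 5.47 to 5.63 in wild type and 5.39 to 5.53 in knockout. Albumin (Alb) and adiponectin (Adipoq) differed by 0.033 and -0.020, with signs that turned in 5 and 5 fits. Ttr and Ttpa differed by -0.67 and -0.33, and Pck1 and Cidea by -0.82 and -0.27, without passing. Without KO4, 1 hepatocyte marker was called lower, Ttr. The adipocyte mean was 6.56 to 7.10 in wild type and 6.36 to 7.37 in knockout. Of 15 colon epithelium markers 1 was called lower, Car4 (1.80-fold, limma adjusted p = 0.0401), a call lost without WT1, WT2, WT3, WT4, KO1, KO2 or KO4. Without KO3, 2 were called lower, Tff3 being the other (limma adjusted p = 0.0309). Over all arrays Tff3 and Epcam differed by -0.41 and -0.12, and Car1 by -0.053 with a sign that turned in 2 fits. The epithelial mean was 11.17 to 11.34 in wild type and 11.00 to 11.14 in knockout.

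Pancreatic acinar RNA moved with genotype in KO1, KO2 and KO4. Cpb1 gave 12.18, 12.65, 4.62 and 12.50 from KO1 to KO4, and 4.62 ± 0.070 in wild type (SD, n = 4). Limma called 0 of the 16 markers over 8 arrays and 14 without KO3. With KO3 alone against wild type, assuming that a lone array varies as the others do, log2 differences were 3.34, 1.66, 1.52 and 0.80 for Saa3, Lcn2, Hp and Chil1, and 0 passed (limma adjusted p = 0.504, 0.381, 0.751 and 0.666). With the pancreatic mean as a covariate 0 of the 4 passed, at the values given with each gene. Because that mean nearly follows genotype, the fit cannot tell them apart.

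Posterior colon position genes, mostly Hox genes, also differed between arrays. Their mean was 6.20 to 6.40 in wild type and 5.79, 5.92, 6.17 and 6.29 from KO1 to KO4, with 0 of 8 called by limma. Hoxb13 and Hoxd11 differed by -0.91 and -0.38 (limma adjusted p = 0.125 and 0.297), and the sign of Hoxd11 turned in 1 fit. With that mean as a covariate the members' differences were 3.71, 2.15, 1.85 and 0.86, and 0 passed (limma adjusted p = 0.220, 0.223, 0.422 and 0.327). Each covariate fit called 2 genes higher on the whole array. The part of either signal in the members' differences was not tested.

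**Figure D4:**
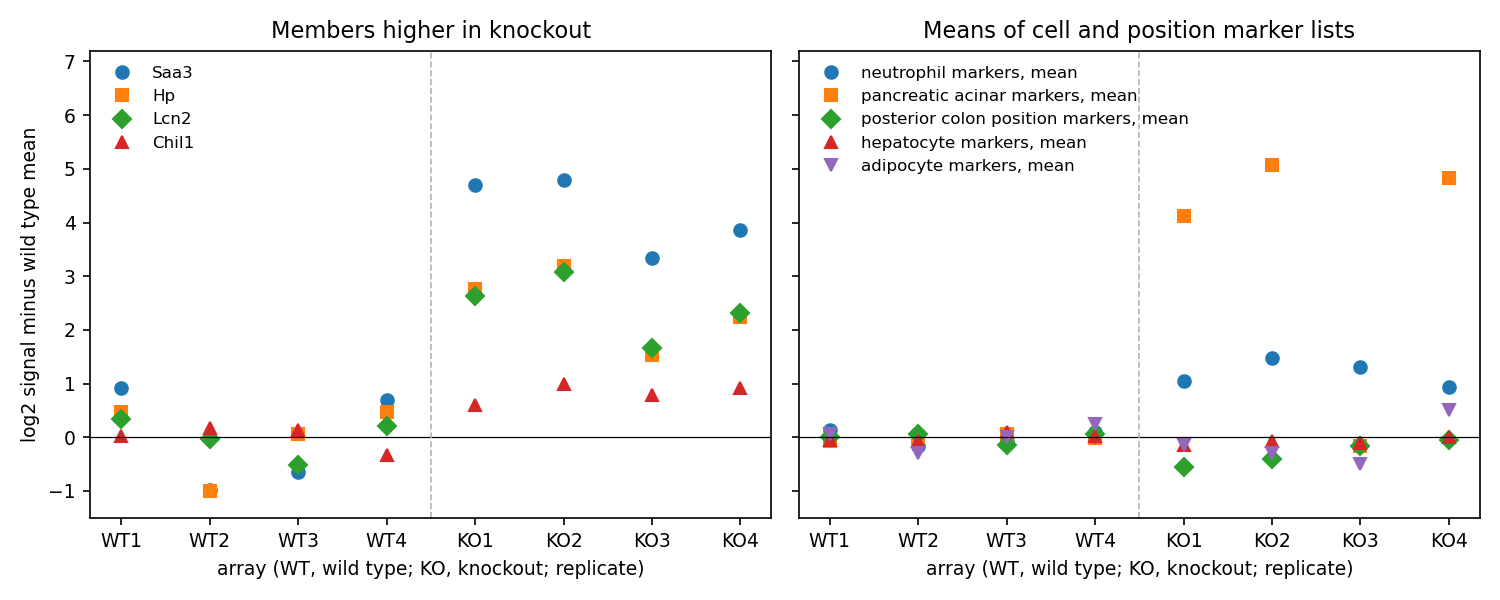
Log2 signal minus the wild type mean (vertical axis) on each of the 8 arrays (horizontal axis), for the 4 members higher in knockout and for the means of marker lists. KO3 is at the wild type level for pancreatic markers and above it for the 4 members and for neutrophil markers.

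Over 20 alternative fits Saa3 and Lcn2 kept their call in 17, Chil1 in 12 and Hp in 8, and all 4 kept a positive difference in the 20.

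**Figure D5:**
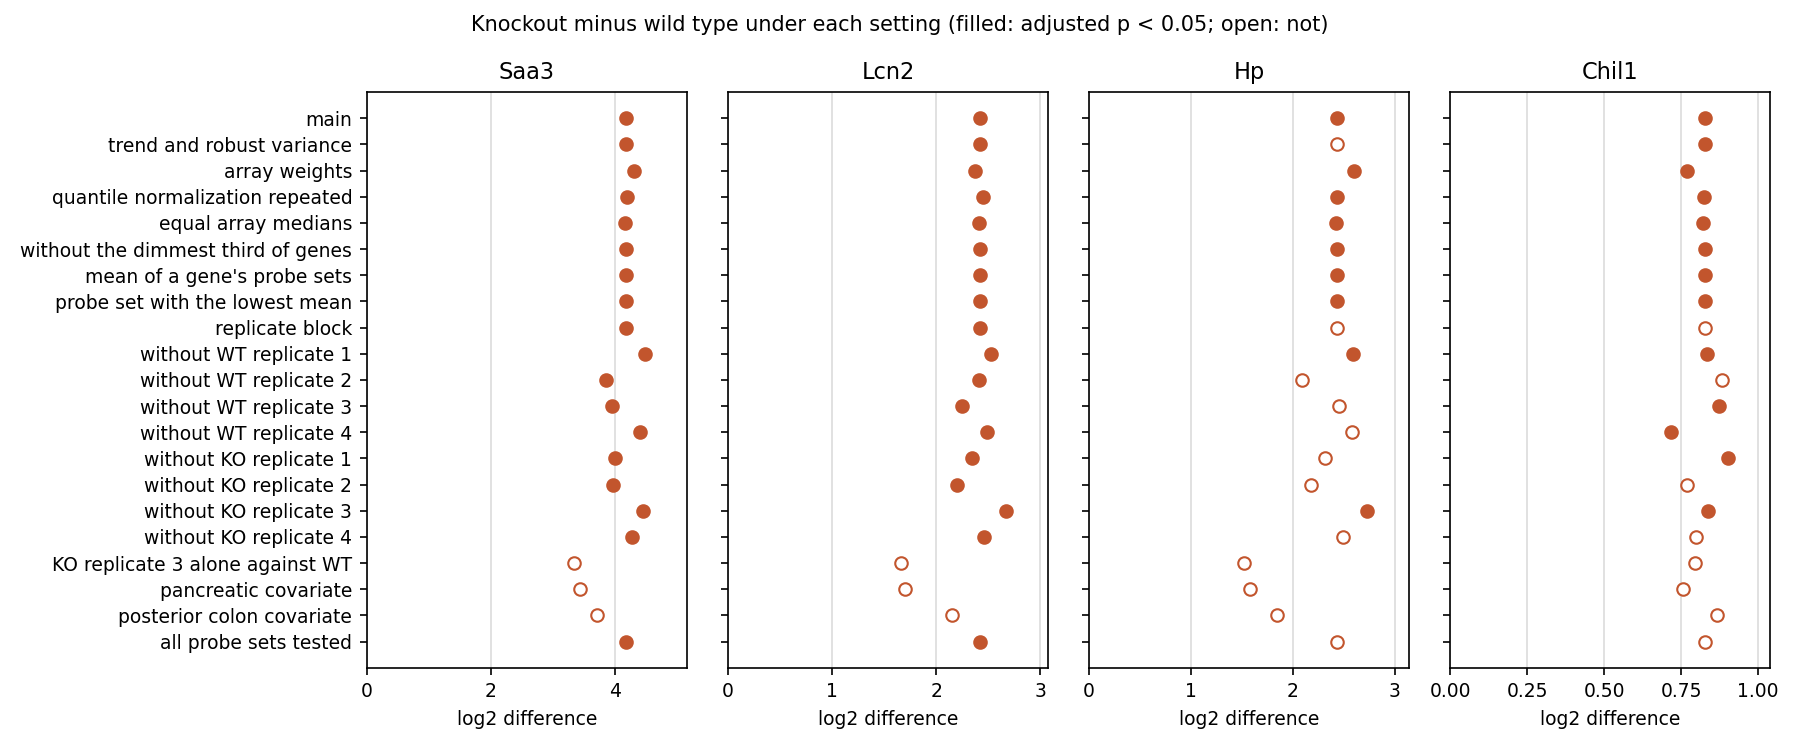
Log2 difference, knockout minus wild type (horizontal axis), of Saa3, Lcn2, Hp and Chil1 in the reported comparison and 20 alternatives (vertical axis), filled where the limma adjusted p was under 0.05. Every point lies above 0, and open points are most frequent for Hp.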

How the data were processed

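RNA of 1 mouse per array (200 ng) was labelled with biotin, per the labels' protocols. The deposited values are log2 signals that came from RMA in Affymetrix Expression Console 1.4, as the submitters' processing notes list. RMA narrows differences near background and near saturation. The number of arrays limits the precision. Scan batches and scanner files were not used here.

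Of 41345 probe sets, 23521 carried 1 gene symbol, 1814 several and 16010 none, and 23328 were matched to RefSeq (GRCm38.p6) by Entrez identifier. Where a gene had several, the probe set with the highest mean stood for it, which left 22180 genes. The knockout minus wild type difference of each gene came from limma 3.58.1 under R 4.3.3 (lmFit, eBayes, no covariate, Benjamini-Hochberg over all genes), tested on simulated data.

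The labels name separate mice and state no pairing of replicate numbers. Alternatives changed the variance model, array weights, scaling, filter, probe set rule, covariates, a block and the arrays used. Members and lists were chosen with earlier results of these data known. Named genes were the members, the 2 of smallest p per list and a preset group. Others (Il11, Cd44, Hmox1, Mmp9, Steap4, Crp, Apcs, Fga, Fgb, Fgg, Lbp, Mmp8, Itih3, Itih4, A2m, Hamp, Hamp2 and Il1rn) and the shared Saa probe set were singled out with their values in view.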

Additional observations from a re-analysis of the deposited data

Results flagged for a closer look

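In 8 of 152 groups of 4 arrays, 1 array stood apart from the other 3 by Dixon's ratio, where chance gives about 1 in 20, and no member was among them. KO3 stood apart in the pancreatic genes Cpb1 (4.62), Ctrl (6.93) and Cel (5.05) and in the colonocyte gene Car4 (11.18), on the log2 scale. KO2 stood apart in Hmox1 (7.18) and the neutrophil chemokine receptor gene Cxcr2 (9.03). WT4 stood apart in Chil4 (4.00) and KO1 in Elane (5.68).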

How the results depend on the processing

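Calls over 5 settings are given in the order replicate block, all probe sets tested, KO3 alone, pancreatic covariate and posterior covariate. Members called higher (4) became 2, 2, 0, 0 and 0, and 2 to 4 without an array. All genes called higher (87) became 56, 24, 14, 2 and 2, and 24 to 172 without an array. All genes called lower (41) became 8, 1, 0, 0 and 0, and 1 to 80 without an array. They were also 64 with a trend and robust variance, 69 with array weights and 80 without the dimmest genes. Other acute-phase proteins called higher (2) became 2, 1, 0, 0 and 0, and 1 to 5 without an array. The replicate block left Saa3 and Lcn2 called, ended Hp (0.0792) and Chil1 (0.0582), and brought Osm and Il1r1 past the threshold (limma adjusted p = 0.0368 and 0.0467). It also ended the calls of Il1r2, Osmr, Il22ra1, Fpr2, Mmp9, Cd44, Hmox1, Ngp, Itgam, Msr1 and Car4, at limma adjusted p from 0.0529 (Il1r2) to 0.110 (Il22ra1), and took receptors and partners from 5 calls to 1. Same-numbered arrays did not deviate together (correlations -0.14, -0.16, 0.042 and 0.052), and 0 of 8 arrays was closest to its own number. Whether the numbers stand for any shared handling was not tested. Testing all probe sets was chosen after seeing the data and adjusts over more tests. Elsewhere the cause was not tested.

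The genes whose log2 difference turned sign were uncalled in the reported comparison. With KO3 alone they were Saa2 0.043, Chia1 0.061, Elane 0.017, Ly6g 0.16, Alb -0.33 and Cpb1 -0.0030. With array weights they were Orm1 0.033, Il6ra -0.0083 and Adipoq 0.13. With the pancreatic covariate they were Chia1 0.067, Ly6g 0.050 and Alb -0.34, and with the posterior covariate Orm1 0.080, Slc22a17 -0.0012, Ly6g 0.43, Alb -0.17, Adipoq 0.26 and Hoxd11 0.012. Ranges without an array were Orm1 -0.21 to 0.020, Orm3 -0.13 to 0.052, Chil4 -0.16 to 0.0022, Chia1 -0.15 to 0.060, Il6ra -0.054 to 0.061, Slc22a17 -0.0059 to 0.036, Mpo -0.011 to 0.091, Elane -0.059 to 0.056, Alb -0.13 to 0.17, Adipoq -0.25 to 0.24, Car1 -0.15 to 0.092 and Trim58 -0.18 to 0.0029. Dim probe sets limit Saa2, Saa4, Orm2, Orm3, Chil4, Chia1, Il22, Il17a, Camp, Mpo, Hamp, Crp, Apcs, Fga, Fgb, Fgg and Itih3. They also limit the called genes Chil1, Chil3, Il6, Il1a, Il11, Il13ra2, Fpr2, S100a9, Stfa2l1, Mmp8 and Ngp.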

Other observations

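Among 25 other acute-phase genes, 3 were above every wild type mouse in KO1, KO2 and KO4 but not in KO3, as were 2.17% of all genes, 13 of 16 pancreatic markers and 0 of the 7 members. Itih4, a chain of the inter-alpha-trypsin inhibitors, gave 6.11, 7.08, 5.44 and 6.23 from KO1 to KO4, and 5.37 ± 0.14 in wild type (log2, SD, n = 4). The protease inhibitor A2m gave 5.75, 6.56, 5.04 and 5.62, and 4.98 ± 0.16 in wild type (SD, n = 4). The hepcidin gene Hamp2 gave 5.68, 5.87, 4.56 and 6.38, and 5.10 ± 0.15 in wild type (SD, n = 4). Over all arrays these differences missed the threshold (limma adjusted p = 0.181, 0.200 and 0.495).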
